A study of Mus musculus with 6 samples.

Results

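The oxygen response and glucose use were followed through 10 genes in bone under the cartilage of the jaw joint in mice, taken from the mandibular condyle, which is the head of the lower jaw. They were chosen by name as hypoxia factors and as their glycolytic and vessel targets, and all 10 were found among the 23170 genes of the authors' deposited table. The study compared 3 libraries from sham-operated joints with 3 libraries from joints after partial discectomy, in which part of the joint disc is removed to bring on degeneration. All mice were wild type, the surgery was done on a single joint, and the age label, which is not spelled out, reads 6 weeks followed by 2 weeks after a second prefix. In the sample descriptions every library titled sham is labelled Rctrl and every partial discectomy library LPD, with no key. If the first letters, R and L, name the side of the joint, side and surgery cannot be told apart. Before these labels stand the numbers 1, 5 and 6 in sham libraries, while those after partial discectomy are numbered 2, 4 and 6. Whether each library is a mouse of its own, or the libraries numbered 6 are from the same mouse, is not labelled, so the spread between libraries may be partly technical. The table holds the mean of each group, the highest of the 6 libraries, and the arithmetic and geometric means over all 6. Values of single named libraries were not analysed here, and the sequencing depth is unknown.

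Cells sense oxygen through the hypoxia-inducible factors. Their alpha subunits, encoded by Hif1a and Epas1, are made all the time, are marked for destruction by prolyl hydroxylases while oxygen is present, and pair with the beta subunit encoded by Arnt when it is not. The pair then binds a short DNA core, RCGTG by name, and raises genes of glucose uptake, glycolysis, mitochondrial clearance and vessel growth. In bone this system is known for tying vessel growth to bone formation, and cartilage and marrow are tissues of low oxygen. Because the alpha subunits are controlled mainly as proteins, the RNA of their targets is the usual readout.

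The binding core was looked for in the DNA just before the starts of these genes. As the genes were chosen by name as hypoxia factors and their targets, its presence is no separate support for the set. RefSeq promoter sequences of the build GRCm38.p6 were matched by symbol for 8 of the 10 genes, with Epas1 and Ndrg1 unmatched. Within 250 bases before any listed start, on either strand, ACGTG was found in 6 of the 8 genes and GCGTG in 6, and each of the 8 had at least one of them. These starts belong to the promoter sequences and can lie inside the gene spans given below, as for Hif1a (73907867) and Ldha (46845804). The matches of Vegfa lay before its listed start at 46025163, also inside the span, and none before that at 46032377. Among 7693 matched genes with a mean signal at least 5 above the lowest value in the table, ACGTG was found in 26.1%, GCGTG in 51.3% and either in 63.0%. A match is a description of the letters and does not show that a factor binds there. One ACGTG match, in capitals, is shown for 4 of the genes, and for Pgk1 both, which lie close together; a match on the other strand reads CACGT.
Hif1a, chr12:73907785-73907813, plus strand, 70 bases before the start: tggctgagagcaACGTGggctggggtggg
Slc2a1, chr4:119108697-119108725, plus strand, 36 bases before the start: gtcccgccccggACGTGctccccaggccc
Pgk1, chrX:106186938-106186966, plus strand, 150 bases before the start: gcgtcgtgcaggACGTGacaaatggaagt
Pgk1, chrX:106186957-106186985, plus strand, 131 bases before the start: aaatggaagtagCACGTctcactagtctc
Ldha, chr7:46845758-46845786, plus strand, 34 bases before the start: cgtgggttcccgCACGTccgctgggctcc
Bnip3, chr7:138909597-138909625, minus strand, 107 bases before the start: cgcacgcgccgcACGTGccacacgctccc
Ldha held 5 such matches over both strands, of which 4 were the forward and reverse readings of 2 copies of CACGTG. That palindrome is also the core of the E-box, a site of other transcription factors, and 1 copy stood in each of Hif1a and Bnip3. In Bnip3 both ACGTG matches, including the one shown, are readings of that copy.

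None of the 10 genes passed the threshold after partial discectomy. At an adjusted p under 0.05, 0 of 10 were called in either direction in the authors' deposited table, whose statistical model is not named, against 2.38% of all genes. At an unadjusted p under 0.05 the number was again 0 of 10, against 14.2% of all genes. All 10 ratios but that of Adm, and so 9 of them, lay above 1, where 62.7% of all genes did. The median log2 ratio of the 10 genes was 0.21 and that of all genes 0.08. Among the 10286 genes with a mean at least 5 above the lowest value, which include all of the 10 but Adm, the share above 1 was 70.8% and the median 0.14. Ratios have the partial discectomy mean on top and the sham mean below. The summed signal above the lowest value differed slightly between the groups, with a log2 ratio of 0.13, which was taken as a centre. Whether it reflects scale or the make-up of the RNA was not tested. Set against that centre 6 of the 10 genes lay above it, as did 41.4% of all genes, with Hif1a, Bnip3, Ndrg1 and Adm below. Set against the median of all genes, above which 50% of them lie by construction, there were 7, as Bnip3 came to lie above. Of the 10286 genes of higher signal, 50.5% lay above the centre of the summed signal and 59.2% above that median.

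Signals are given in the unnamed normalized unit of the authors' deposited table, in which the lowest group mean of any gene is 1, called the floor here. They are not known to be scaled for gene length and are not compared between genes. The spread between libraries of a group was computed from the deposited arithmetic and geometric means, as a standard deviation on the log2 scale shared by both groups. It ranged from 0.25 for Vegfa to 0.49 for Adm, with a median of 0.40. For each of the 10 genes the log2 ratio was smaller than this spread.

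**Figure D1:**
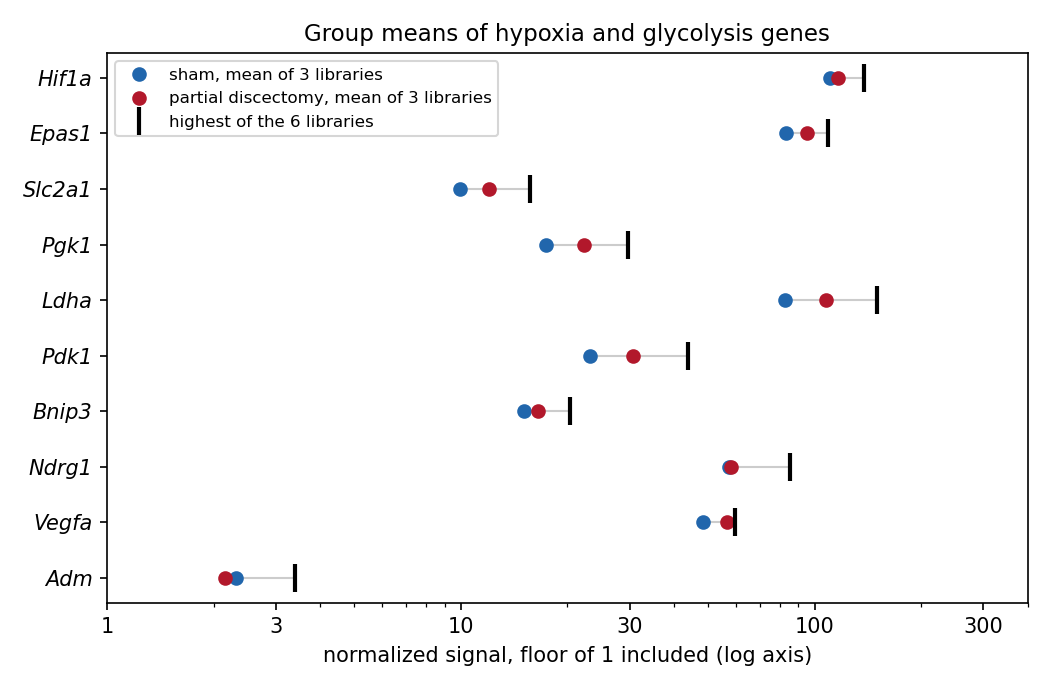
Normalized signal of the 10 genes on a log axis, with the sham mean (blue), the partial discectomy mean (red) and the highest of the 6 libraries (black tick). By ratio, group means lie closest for Ndrg1, with 58.0 and 57.3, and furthest apart for Pdk1, with 30.6 and 23.2. The highest library lies well above both group means for Ldha and Pdk1.

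Neither gene of the oxygen-regulated alpha subunits was called, and their ratios were 1.05 and 1.15. Hif1a encodes the subunit found in most cells (chromosome 12, 73901375 to 73947530 on mm10, protein-coding). Its mean was 116 after partial discectomy and 110 in sham, and its highest library reached 138, in the authors' deposited table. Its ratio was 1.05, with 95% limits of 0.707 to 1.57 and adjusted p = 0.952 by the authors' deposited table. The highest library of Hif1a could belong to either group, but in both cases the values of the groups overlapped. Epas1 encodes HIF-2 alpha, which is prominent in endothelium and regulates iron and red cell genes (chromosome 17, 86753700 to 86833410). It stood at 95.5 and 82.9, with 109 in the highest library and a ratio of 1.15 (adjusted p = 0.709, 95% limits 0.823 to 1.61), in the authors' deposited table.

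The genes of glucose uptake and glycolysis had the 4 largest ratios of the set, with ratios between 1.03 and 1.07 once their highest library was left out. Slc2a1 encodes GLUT1, the basal glucose transporter (chromosome 4, 119108711 to 119137983). In the authors' deposited table its mean was 12.0 after partial discectomy and 9.96 in sham, with 15.7 in the highest library. Its ratio was 1.21 (adjusted p = 0.702, 95% limits 0.825 to 1.77), per the authors' deposited table.

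Pgk1 encodes phosphoglycerate kinase, which makes ATP within glycolysis (chromosome X, 106187100 to 106203699). The authors' deposited table gave 22.3 and 17.4 for the groups, 29.7 for the highest library and a ratio of 1.28 (adjusted p = 0.644, 95% limits 0.820 to 2.00). Ldha encodes the lactate dehydrogenase subunit that favours making lactate from pyruvate (chromosome 7, 46841475 to 46855627). Its highest library reached 150, beside means of 108 after partial discectomy and 82.7 in sham, with a ratio of 1.30 (adjusted p = 0.658, 95% limits 0.827 to 2.05) in the authors' deposited table. Pdk1 encodes a mitochondrial kinase that blocks pyruvate dehydrogenase (chromosome 2, 71873224 to 71903858). With 30.6 and 23.2 it had the largest ratio of the 10, 1.32 (adjusted p = 0.620, 95% limits 0.834 to 2.10), and a highest library of 44.0, in the authors' deposited table. Ldha and Pgk1 have 2 and 3 annotated copies elsewhere in the genome, so some of their reads may have been split.

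For these 4 genes and Epas1 the deposited means allow the highest library to be only a partial discectomy library. Without it the mean of the other 2 partial discectomy libraries was 10.2 for Slc2a1, 18.6 for Pgk1, 86.5 for Ldha, 23.9 for Pdk1 and 88.6 for Epas1. The ratios to sham were then 1.03, 1.07, 1.05, 1.03 and 1.07. All 5 were still above 1, and none exceeded 1.07. Whether it was the same library for each gene is not known. Leaving out the highest value lowers a ratio by construction. Among all genes with a mean at least 5 above the floor, 50.5% also had their highest library certainly in the partial discectomy group, and there the step took the median log2 ratio from 0.31 to 0.18. In the 4 glucose and glycolysis genes it went from 0.37 to 0.06.

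**Figure D2:**
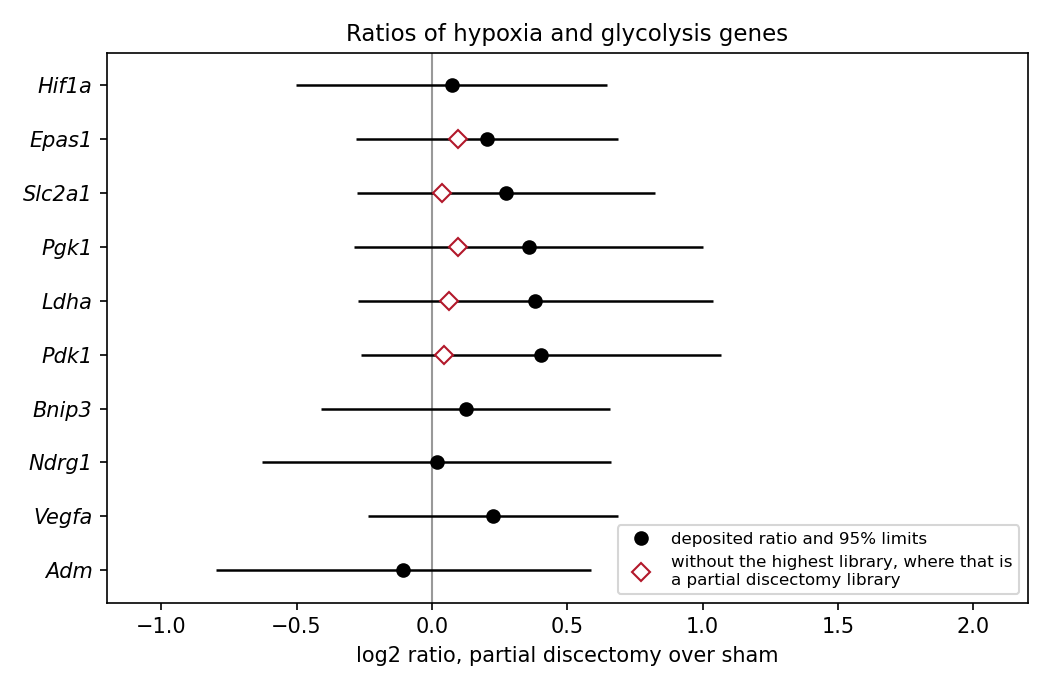
Log2 ratio of partial discectomy over sham for the 10 genes, with the deposited 95% limits as bars and, as open diamonds, the ratio without the highest library for the 5 genes where that library must be from partial discectomy. All limits span 0, and the diamonds of Slc2a1, Pgk1, Ldha, Pdk1 and Epas1 lie near 0.

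The spread was set beside that of genes whose mean lay within 0.5 on the log2 scale, and 8 of the 10 genes were above the median of these. Adm had a larger spread than 93.9% of them, Pdk1 than 90.6%, Pgk1 than 87.3%, Ndrg1 than 84.9% and Ldha than 81.2%. Slc2a1 followed with 71.3%, Bnip3 with 68.8% and Hif1a with 61.1%. Epas1 and Vegfa were in the lower part, at 45.0% and 46.9%. A wide spread for the level was shared by most of the 10 and not limited to the glucose and glycolysis genes.

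Bnip3 and Ndrg1, which mark hypoxic stress in many cells, had group means close to each other, and neither was called. Bnip3 encodes a mitochondrial protein that marks mitochondria for removal (chromosome 7, 138890836 to 138909519). Its means were 16.5 and 15.1, its highest library 20.3 and its ratio 1.09 (adjusted p = 0.890, 95% limits 0.754 to 1.58), in the authors' deposited table. A noncoding gene on the opposite strand, Gm45507, overlaps it at 7.81 and 7.43 in the authors' deposited table, and as strand use in counting is not stated in the sources used here, reads of the 2 may mix. Ndrg1 encodes a cytoplasmic protein raised by hypoxia and by differentiation (chromosome 15, 66929318 to 66969640). It stood at 58.0 and 57.3, a ratio of 1.01 (adjusted p = 0.942, 95% limits 0.648 to 1.58), although 1 library reached 85.3, in the authors' deposited table. The groups overlapped for both genes, and the highest library could be from either group. If that of Ndrg1 was a partial discectomy library, the ratio without it was 0.774, and if it was a sham library, 1.34.

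The 2 secreted vessel signals had the smallest and the largest spread of the set, and neither changed past the threshold. Vegfa encodes the main growth factor of blood vessels (chromosome 17, 46016993 to 46032369). It had means of 56.4 and 48.3 and a highest library of 59.4 in the authors' deposited table, from which no partial discectomy library can have been below 50.3. Its ratio was 1.17 (adjusted p = 0.637, 95% limits 0.848 to 1.61) by the authors' deposited table, beside a spread of 0.25. Adm encodes adrenomedullin, a peptide that widens vessels and acts on lymphatics (chromosome 7, 110627661 to 110629820). It was near the floor at 2.15 and 2.32, with 3.39 in the highest library and a ratio of 0.930 (adjusted p = 0.988, 95% limits 0.575 to 1.50), in the authors' deposited table. With the floor subtracted the ratio of Adm was 0.877. Its groups overlapped, while for Vegfa, Epas1, Slc2a1, Pgk1, Ldha and Pdk1 the deposited means do not tell whether they did.

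The wider pathway was followed in 8 lists that hold 125 measured genes besides the 10. Of these 3 were called higher and none lower in the authors' deposited table, where 2.28% of all genes were called higher and 0.104% lower. By unadjusted p under 0.05, 18 were higher and 6 lower, against 10.9% and 3.31% of all genes. The 3 called genes were Hk3, Cxcr4 and Angpt1. Over all 125 genes the median log2 ratio was 0.24.

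Among 17 genes of the factors and their oxygen sensors none was called, and the median log2 ratio was 0.18. Arnt, the common partner of both alpha subunits, had means of 51.7 and 57.5 and a ratio of 0.898 (0.663 to 1.21) in the authors' deposited table. The prolyl hydroxylases Egln1, Egln2 and Egln3, which mark the alpha subunits and of which Egln3 is itself a target, stood at ratios of 1.09, 1.13 and 1.36 by the authors' deposited table, and Vhl, which binds the marked subunits, at 1.23. They are named for their role, after their values were seen. Cited2 and Cited4, which compete with the factors for their co-activator, had the smallest p of the list. Their ratios were 1.66 (adjusted p = 0.253, 95% limits 1.05 to 2.62) and 1.31 (adjusted p = 0.199, 95% limits 1.08 to 1.60) in the authors' deposited table, and Cited4 lay close to the floor.

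Among 22 glycolytic enzymes 1 rose, and 16 ratios were above 1. Hk3, a hexokinase of white blood cells, rose from 2.58 to 11.1, a ratio of 4.31 (adjusted p = 0.00937, 95% limits 2.89 to 6.44) in the authors' deposited table. Without its highest library that ratio was 3.98. By the authors' deposited table the other hexokinases, Hk1 and Hk2, had ratios of 1.27 and 1.10. Pklr, the pyruvate kinase of red cells and liver, was at 2.76 and 1.06, a ratio of 2.61 (adjusted p = 0.0541) per the authors' deposited table, while the widespread form Pkm was at 219 and 191 with a ratio of 1.14. The remaining genes at an unadjusted p under 0.05 were Gpi1 with a ratio of 1.50 and, lower, the enolase Eno2 with 0.618 (adjusted p = 0.204, 95% limits 0.435 to 0.877), per the authors' deposited table. Of the 20 enzymes besides Pgk1 and Ldha, 12 also had their highest library certainly in the partial discectomy group, and their median log2 ratio went from 0.39 to 0.18 without it.

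Of 7 transporters of glucose and lactate none was called. The lactate transporters Slc16a1 and Slc16a3 had ratios of 2.15 (adjusted p = 0.0809, 95% limits 1.39 to 3.32) and 1.51 (adjusted p = 0.334, 95% limits 1.04 to 2.21) in the authors' deposited table, and their chaperone Bsg 1.27. Among 16 enzymes that set glycolytic flux or the fate of pyruvate none was called either. Pfkfb4, which makes the activator of phosphofructokinase, had a ratio of 1.58 (adjusted p = 0.163, 95% limits 1.15 to 2.17), Pdp1, the phosphatase that opposes Pdk1, 0.725, and the target of both, Pdha1, 1.12, in the authors' deposited table. The kinases related to Pdk1, named after their values were seen, had ratios of 0.983 for Pdk2, 1.56 for Pdk3 and 1.35 for Pdk4 in the authors' deposited table.

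Other known targets were mixed, with 1 of 47 called. Cxcr4, the receptor of the marrow chemokine Cxcl12, rose from 9.29 to 28.6, a ratio of 3.08 (adjusted p = 0.0245, 95% limits 1.91 to 4.97), in the authors' deposited table. By unadjusted p under 0.05, 8 were higher and 3 lower. Hmox1, the heme-degrading enzyme, was at a ratio of 1.82 (adjusted p = 0.0546, 95% limits 1.35 to 2.45), and Plod2, a collagen lysyl hydroxylase, 1.15, in the authors' deposited table. Among the lower ones, and named after their values were seen, were Bhlhe41 with a ratio of 0.549 (adjusted p = 0.243) and Bhlhe40 with 0.712 (adjusted p = 0.350) in the authors' deposited table, both transcriptional repressors that also act in the circadian clock. Bnip3l, the close relative of Bnip3 that clears mitochondria from maturing red cells, had a ratio of 1.65 (adjusted p = 0.102, 95% limits 1.21 to 2.24) in the authors' deposited table. It had the smallest p of 8 mitophagy genes, none of which was called. In the NDRG family of 4 the relatives of Ndrg1 had ratios of 0.775 for Ndrg2, 0.905 for Ndrg3 and 0.747 for Ndrg4 in the authors' deposited table, and none was called.

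Among 22 genes of VEGF and adrenomedullin signalling 1 rose, Angpt1, which encodes a ligand that steadies vessels through the Tek receptor. It went from 4.29 to 8.63, a ratio of 2.01 (adjusted p = 0.0307, 95% limits 1.48 to 2.73), in the authors' deposited table, and its highest library was 8.98. The VEGF receptors Flt1, Kdr and Flt4 stood at ratios of 1.11, 1.51 and 1.81 by the authors' deposited table, of which Flt4 had an unadjusted p of 0.0334 with limits of 0.935 to 3.50, on the other side of the threshold from that p. Nrp2, a co-receptor, stood at 563 and 419, a ratio of 1.34 (0.798 to 2.26), in the authors' deposited table. The receptor of adrenomedullin, Calcrl, and its partners Ramp2 and Ramp3 stood at ratios of 0.868, 0.684 and 1.49 by the authors' deposited table. Flt1, Kdr, Calcrl and Ramp2 are named for their role, after their values were seen.

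**Figure D3:**
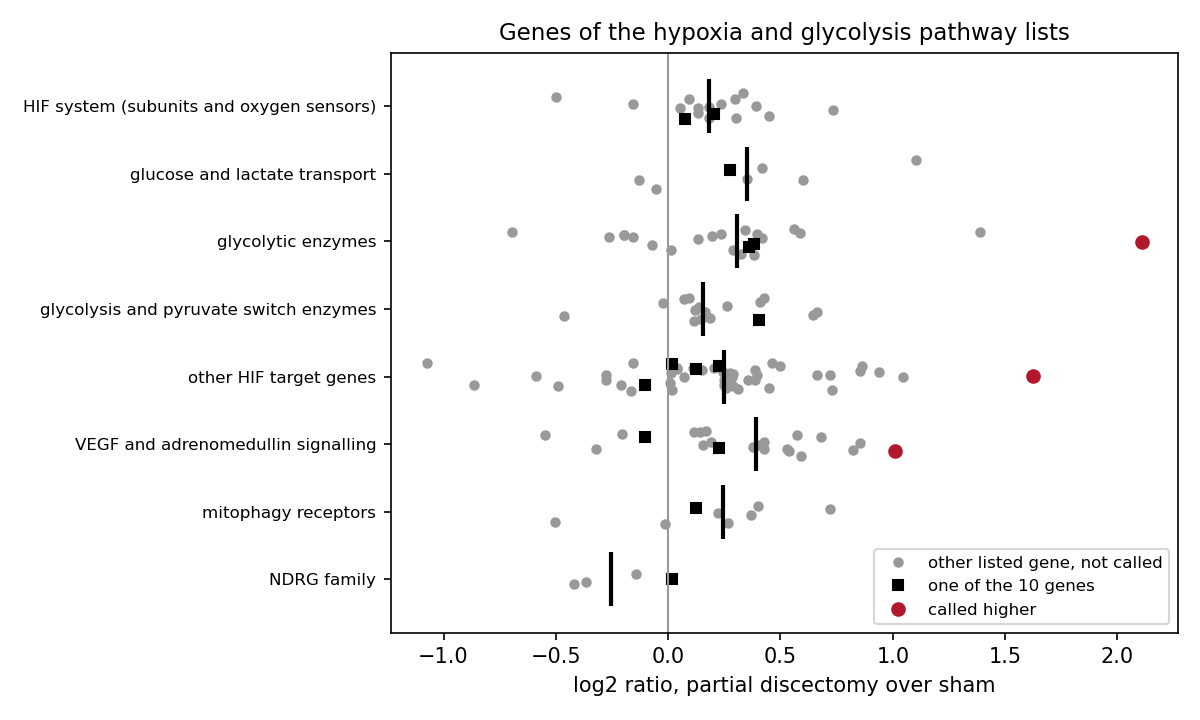
Log2 ratio of partial discectomy over sham for each measured gene of the 8 pathway lists, with a vertical bar at each list's median, black squares for the 10 genes and red points for genes called higher. Hk3, Cxcr4 and Angpt1 are the red points, and the NDRG family is the only list with a median below 0, at -0.26.

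Marker lists of blood cells had larger median ratios than the 10 genes in the same comparison. Among neutrophil markers 10 of 12, among erythroid markers 12 of 12 and among megakaryocyte and platelet markers 8 of 10 were called higher in the authors' deposited table, and none lower. Their median log2 ratios were 3.62, 3.13 and 1.08, and ratios ranged from 4.21 to 18.4, from 2.69 to 18.0 and from 1.19 to 15.7. Summed over the list and above the floor, erythroid markers came to 296 after partial discectomy and 15.3 in sham. Endothelial markers had 13 of 13 ratios above 1 and no call, their median log2 ratio was 0.54, and their sum was 342 against 240. All 10 skeletal muscle markers had ratios under 1, with a median of -0.45, no call and sums of 212 and 339. Osteoblast markers, which belong to the labelled tissue, were all present, from 86.6 above the floor in sham upwards, with a median of 0.51 and no call. Osteocyte and chondrocyte markers had medians of 0.79 and -0.01, again with no call. The 10 measured chondrocyte markers lay from 5.05 above the floor in sham upwards, with sums of 6148 and 5161. RNA of cartilage genes was thus in the libraries too. B cell markers had 10 of 10 ratios above 1, a median of 1.29 and 1 call, Igll1. All 8 osteoclast markers had ratios above 1, with a median of 0.85, no call and sums of 3102 and 1629. Of 11 monocyte and macrophage markers 2 were called higher, Ly6c2 and Ccr2, with a list median of 0.45. In that list 8 ratios were above 1 and 3 were not. Of 6 fat cell markers Fabp4 and Pparg were called higher, with a list median of 0.74. Fat cell ratios went both ways, 4 above 1 and 2 not, with 1 lower at an unadjusted p under 0.05. Genes of the handling stress list went both ways, with 6 of 10 ratios above 1, a median of 0.23 and no call. Hspa1b, which encodes a heat shock protein, was at 5.68 and 11.2, a ratio of 0.506 (adjusted p = 0.0596), in the authors' deposited table. Its near-identical neighbour Hspa1a had a ratio of 0.590 (adjusted p = 0.131) and the early response gene Ier2 1.57 (adjusted p = 0.277), in the authors' deposited table. These 3 were the genes of that list at an unadjusted p under 0.05. The called markers and these 3 genes are named after their values were seen. Above the floor, the lowest sham level of a listed marker was 1.47 for neutrophils, 0.110 for erythroid cells and 0.0311 for megakaryocytes and platelets. In RNA from whole tissue, more cells of a type and more RNA per cell cannot be told apart. The part of these cell types and of handling in the ratios of the 10 genes, or of Hk3, Cxcr4 and Angpt1, was not tested.

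**Figure D4:**
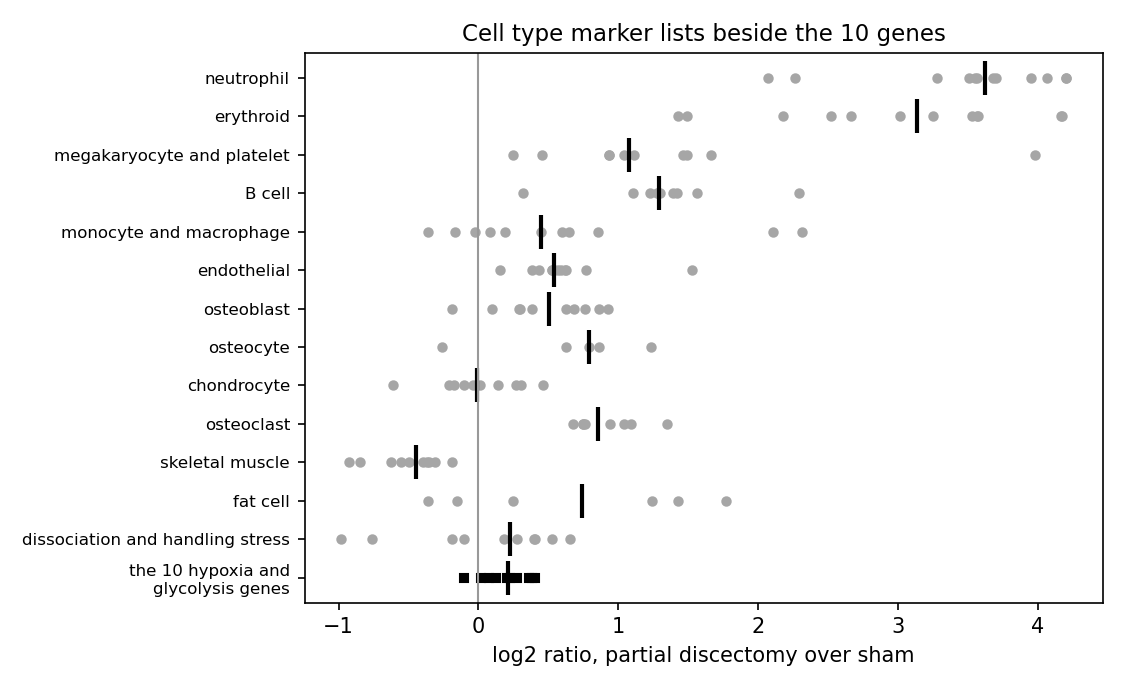
Log2 ratio of partial discectomy over sham for each gene of the 13 marker lists (grey points) and for the 10 hypoxia and glycolysis genes (black squares), with a black bar at each median. Neutrophil and erythroid markers lie far to the right, skeletal muscle markers all lie below 0, and the 10 genes lie between -0.10 and 0.40.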

How the data were processed

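RNA of 6 libraries was sequenced, 3 per group, with groups taken from the sample titles. STAR 2.6.1d and the build mm10 were used, per the submitters' processing notes. Sources used here do not name the counter, the gene filter, the normalization or the model. The authors' deposited table gives a normalized signal per group and over all libraries, a ratio, its log2, a p-value with its adjusted value, and a signed fold change with 95% limits, entered here as a score and turned into ratios. Benjamini-Hochberg adjustment of the deposited p over all 23170 genes gave back the deposited adjusted p. A second file held gene positions and no measurement.

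A count-based test had been planned for values per library and was replaced by the authors' statistics. Calls used an adjusted p under 0.05. The lowest group mean, 1, was read as an offset added to each library (the floor). The mean over groups of the log ratio of arithmetic to geometric mean gave the spread within groups. The group of the highest library was taken as known where the deposited means, maximum and geometric mean allowed only 1 group, which assumes values no lower than the floor. For 0 genes was neither group possible. Both steps were tested on simulated data. Positions are from GENCODE M21. Deposited starts equal these, and deposited ends lie 1 base further.

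The 10 genes and all lists were chosen with earlier results of these data known. Named besides the 10 were, per pathway list, called genes, the 2 with the smallest p and the 1 with the highest mean. Some genes of the lists are not reported here, while the counts include them. No gene was named as most like another, since 2 group means give no pattern. Python 3.11.15, numpy 2.4.6 and pandas 2.3.3 were used. Alternatives were the floor, the scaling, the highest library, and the genes and threshold of the adjustment.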

Additional observations from a re-analysis of the deposited data

How the results depend on the processing

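No paired analysis was possible because the table holds group means and no values per library (the sample descriptions share only the number 6 between groups), and the alternatives that need counts (edgeR, DESeq2, other filters, leaving out each library in turn) were not run for the same reason. The number of the 10 genes called stayed at 0 in each direction when p-values were adjusted over genes at least 1 or 5 above the floor on average or over protein-coding genes, at an adjusted p under 0.1, and at an unadjusted p under 0.05. The minimum of 5 left out Adm. Each of 55 alternative log2 ratios of the 10 genes moved by less than the spread within groups. That rule cannot show that a direction holds, since the spread exceeded the log2 ratio of each gene. Ndrg1, for one, went from 0.02 to -0.37 without its highest library, taken as partial discectomy. Each centring moved all genes by a shared constant, 0.08 or 0.13, below the smallest spread of 0.25. The alternative log2 ratios ran from -0.19 to 0.42 with the floor subtracted, and from -0.24 to 0.27 when centred on the summed signal, where 4 genes were below 0. Without the highest library they ran from -0.59 to 0.19 if it was taken as partial discectomy for all 10 genes, and from 0.26 to 0.42 if taken as sham for the 5 genes that allow it. The count of pathway genes called higher was 3, and it was 5 when adjusted over protein-coding genes, 7 at an adjusted p under 0.1 and 18 at an unadjusted p under 0.05. The count called lower was 0, and 6 at an unadjusted p under 0.05. These changes come from the looser threshold or from fewer genes tested. In alternatives chosen after seeing the data, the log2 ratios of Hk3 and Angpt1 went from 2.11 to 2.68 and from 1.01 to 1.21 with the floor subtracted. As depth is unknown, no detection limit can be given, and Adm, 1.15 and 1.32 above the floor, is the gene of the 10 whose ratio rests on the lowest signal.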
